A study of Mus musculus with 5 samples.

Results

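The ancient interspersed repeats of the mouse genome were taken as the repeat entries of the classes LINE/L2, LINE/CR1 and SINE/MIR and of every DNA transposon class, selected by the class name in each entry's label and required to be listed for CpG methylation in all 5 libraries. This gave 3978 of the 46641 repeat entries listed throughout, or 8.53%, in 207 families. SINE/MIR held 1600 entries, LINE/L2 929 and LINE/CR1 129. The DNA transposons held 1060 entries of hAT-type classes, 257 of TcMar-type classes and 3 of other classes (families Looper and UCON29). The class and family names were used as deposited, and no methylation value entered the selection.

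These elements are remnants of transposons that stopped moving long ago. L2 and CR1 are LINEs, elements that once encoded their own reverse transcriptase, and MIR is a short element derived from a tRNA that was copied by the L2 machinery. DNA transposons moved by excision and insertion of DNA: the hAT superfamily includes the Charlie elements and their short MER derivatives, and the TcMar superfamily includes the Tigger and mariner-like elements. Old copies have lost many of their CpG sites to deamination of methylated cytosine, and are no longer mobile, unlike some L1 and ERVK elements of the mouse. Primordial germ cells, the embryonic founders of eggs and sperm, are known to erase most of their DNA methylation as they enter the gonad.

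The assay was reduced representation bisulfite sequencing (RRBS), which reads cytosine methylation in restriction fragments from the CpG-rich share of the genome. All 5 libraries came from C57BL6 mice. Female ESC, a female embryonic stem cell line, and pESC, a parthenogenetic line whose genome comes from the egg alone, were grown on feeder cells in serum medium with LIF. ESC-PGCLC and pESC-PGCLC, germ cell-like cells, were derived from these lines in 4 days with BMP4, SCF, EGF and LIF that followed 46 h as epiblast-like cells, and were sorted for CD61 and SSEA1 together. PGC, primordial germ cells, were taken with SSEA1 beads from gonads at E12.5, and the labels do not state their sex. Where values of all 5 libraries follow each other, the order is female ESC, then pESC, then ESC-PGCLC, then pESC-PGCLC and last PGC. Each group had 1 library, so no difference below has a replicate error or a test, and each compares 2 libraries rather than 2 conditions. The share of feeder or gonadal somatic cells in a library was not measured here.

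An entry carries a family name and a stretch of the family's consensus, with no genome position. The stretches ran from 17 to 1903 bases, with a median of 142. Genome copies that match the same stretch cannot be told apart, and read depth is unknown. The female ESC library stood apart from the others in its listing. It listed 4042 ancient entries, against 4740 to 4806 in the other libraries, and 384 entries were missing in it alone. Those 384 averaged 40.7% in pESC and 34.1% in PGC. In all, 5205 ancient entries were listed in at least 1 library, 76.4% of them in all 5. It also held more entries at exactly 0% (128, against 59 to 72) and at exactly 100% (13, against 0 or 1). Results that rest on female ESC are therefore also given against pESC where the design offers that comparison.

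Ancient repeats were less methylated than the rest of the repeats in every library. Their mean CpG methylation was 42.65% and 38.03% in the stem cell lines, 37.40% and 34.95% in the germ cell-like cells and 32.57% in PGC. The other 42663 repeat entries averaged 50.92%, 47.04%, 46.00%, 43.93% and 41.54% in the same order. The female ESC library was thus the highest and the PGC library the lowest for both sets. The spread among ancient entries was wide, with a standard deviation over entries of 25.16 percentage points in female ESC and 18.63 in PGC. This is spread between entries and not an error of the mean. It includes the counting error of each level, whose size is unknown because read depth is unknown.

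The classes kept nearly the same order in all 5 libraries. SINE/MIR was the least methylated class in each library, at 39.44% and 34.96% in the stem cell lines, 34.20% and 32.06% in the germ cell-like cells and 30.03% in PGC. LINE/L2, whose reverse transcriptase MIR is thought to have used, stood above MIR in each library, at 43.10%, 38.54%, 37.87%, 35.03% and 32.76% in the same order. The hAT-type transposons followed at 45.11%, 40.89%, 40%, 37.82% and 35.02%. LINE/CR1 was at 47.89%, 41.36%, 41.72%, 37.56% and 34.89%. The TcMar-type transposons were the highest of the 5 classes in each library, at 48.05%, 41.73%, 42.58%, 39.37% and 36.28%. CR1 stood above the hAT-type class in female ESC, pESC and ESC-PGCLC and slightly below it in pESC-PGCLC and PGC.

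**Figure D1:**
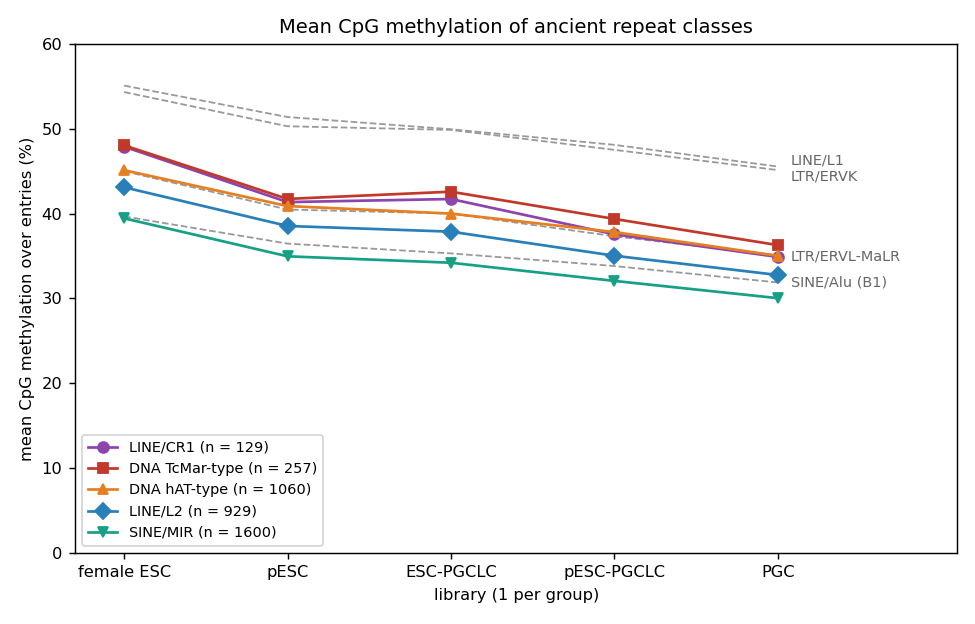
Mean CpG methylation (%) over the entries of the 5 ancient repeat classes in each of the 5 libraries, with 4 other repeat classes as dashed grey lines. Lines only join the values of a class, and each library is the single sample of its group. SINE/MIR is lowest among the ancient classes in each library, and LINE/L1 and LTR/ERVK lie above all 5 of them.

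The LINE/L1 class (21176 entries), which holds both young and old L1 families, averaged 55.09% in female ESC and 45.55% in PGC. LTR/ERVK (5735 entries) averaged 54.33% and 45.13%. Both lay above each of the 5 ancient classes in every library. The 3 other DNA entries were split. The 2 PiggyBac entries lay far above L1 and ERVK, with 86.15% for female ESC and 76.76% for PGC on average. The Kolobok entry was nearly unmethylated, with 6.30% for female ESC and 2.08% for PGC. Their pooled values, 59.53% and 51.87%, therefore describe none of the 3. The rodent B1 elements, labelled SINE/Alu, were close to MIR at 39.67% and 31.88%, although they spread far more recently. The MaLR class, an older LTR group, was close to the hAT-type transposons at 45% and 35.07%.

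Part of the low level of ancient repeats came from entries that carried little methylation anywhere. Of the ancient entries, 461 (11.6%) were under 10% methylated in all 5 libraries, against 3.35% of the other repeats. The share was 14.5% in MIR (232 entries), 11.2% in L2 (104), 9.15% in the hAT-type class (97), 7.75% in CR1 (10) and 6.61% in the TcMar-type class (17). It was 0.75% in L1 and 4.60% in ERVK. Without these entries, the ancient mean was 47.84% in female ESC and 36.37% in PGC, against 52.56% and 42.81% for the other repeats, so a gap in level remained in both libraries. MIR without them was at 45.63% in female ESC and 34.56% in PGC.

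The distribution of levels shows where the libraries differed. Entries under 10% made up nearly the same share in all libraries, between 15.5% in PGC and 16.6% in pESC. The share at 70% or above differed far more. Female ESC had 14.7% of its entries there (583), pESC 6.41% (255), ESC-PGCLC 6.56% (261), pESC-PGCLC 4.25% (169) and PGC 1.76% (70). Among the other repeats, 18.1% of entries in female ESC and 4.79% in PGC were at 70% or above. The libraries thus differed at the methylated end of the range and hardly at the unmethylated end.

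**Figure D2:**
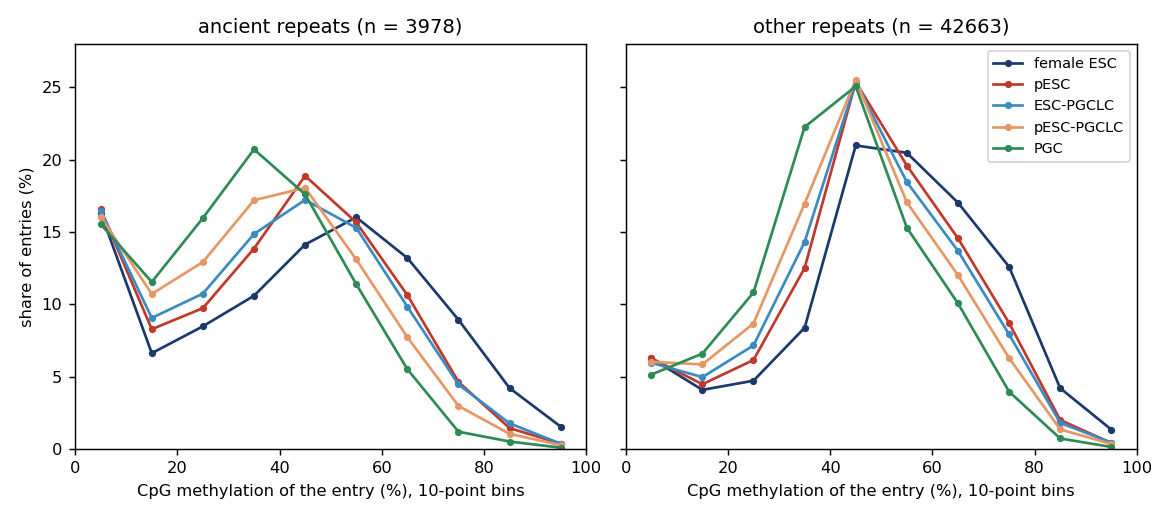
Share of entries (%) in bins of CpG methylation 10 percentage points wide, for the 3978 ancient entries (left) and the 42663 other repeat entries (right), 1 line per library. Ancient repeats have a low peak under 10% that is nearly the same height in all 5 libraries, and a broad upper peak that lies furthest to the right in female ESC and furthest to the left in PGC.

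Among single families the range was wide and their order was stable between libraries. The 26 families with at least 20 entries held 3306 of the entries. Across these families, the rank correlation of mean level between pairs of libraries lay between 0.892 and 0.979, a description over families that share the same libraries. The 3 lowest families by the mean over the 5 libraries were all MIR families. MIR1_Amn (74 entries) was at 35.84% and 31.62% in the stem cell lines, 30.48% and 28.12% in the germ cell-like cells and 26.25% in PGC. MIR3 (269 entries) was at 34.61%, 32.28%, 31.37%, 30.09% and 27.42%, and MIRc (272 entries) at 38.55%, 34.04%, 32.92%, 31.64% and 29.16%. Entries under 10% in all libraries were frequent in these families, at 20.3% of MIR1_Amn and 18.6% of MIR3. The larger families MIRb (553 entries) and MIR (432 entries) stood higher, at 41.89% and 40.50% in female ESC and 31.97% and 30.35% in PGC.

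The L2 families lay close together. L2 itself (225 entries) was at 45.23% in female ESC and 34.74% in PGC, L2a (276 entries) at 43.21% and 33.22%, L2b (216 entries) at 42.39% and 32.20%, and L2c (133 entries) at 43.99% and 32.43%. These 4 families spanned less than 3 points in each of the 2 libraries. In the CR1 class, L3 (77 entries) was at 45.73% in female ESC and 33.96% in PGC. The smaller L3b (18 entries) was at 55.94%, 47.21%, 48.18%, 43.48% and 38.71% from female ESC to PGC, and Plat_L3 (9 entries) at 55.14%, 48.95%, 48.38%, 44.43% and 40.03%. CR1-16_AMi, with only 3 entries, was at 38.17%, 28.54%, 37.42%, 22.15% and 28.96%.

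The highest families were all DNA transposons. Tigger5b_Glire (31 entries), a Tigger element, was at 52.69% and 48.60% in the stem cell lines, 50.58% and 47.89% in the germ cell-like cells and 43.07% in PGC. RCHARR1 (53 entries), a rodent hAT element, was at 54.35%, 49.68%, 47.82%, 45.01% and 43.19%. MER58A (31 entries), a short Charlie-related hAT element, was at 52.93%, 49.29%, 49.64%, 44.00% and 41.39%. None of the 53 RCHARR1 entries and none of the 75 entries of MER2, a short element of the Tigger group, was under 10% in all libraries (0% of each).

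The 3 rodent-specific hAT families URR1A, URR1B and RCHARR1 together (147 entries) averaged 50.5% and 45.7% in the stem cell lines, 43.8% and 42.0% in the germ cell-like cells and 39.2% in PGC. DNA families named for rodents or for Glires, a set of 53 entries, were at 54.2% in female ESC and 44.6% in PGC. The pooling of families into these sets was chosen after values were seen. The other DNA transposon families (1097 entries) were at 44.8% and 34.4%. The higher level did not hold for every rodent name: RMER30 (23 entries) was at 37.5% and 31.5%, and URR1A (51 entries) alone at 45.08% and 32.91%.

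**Figure D3:**
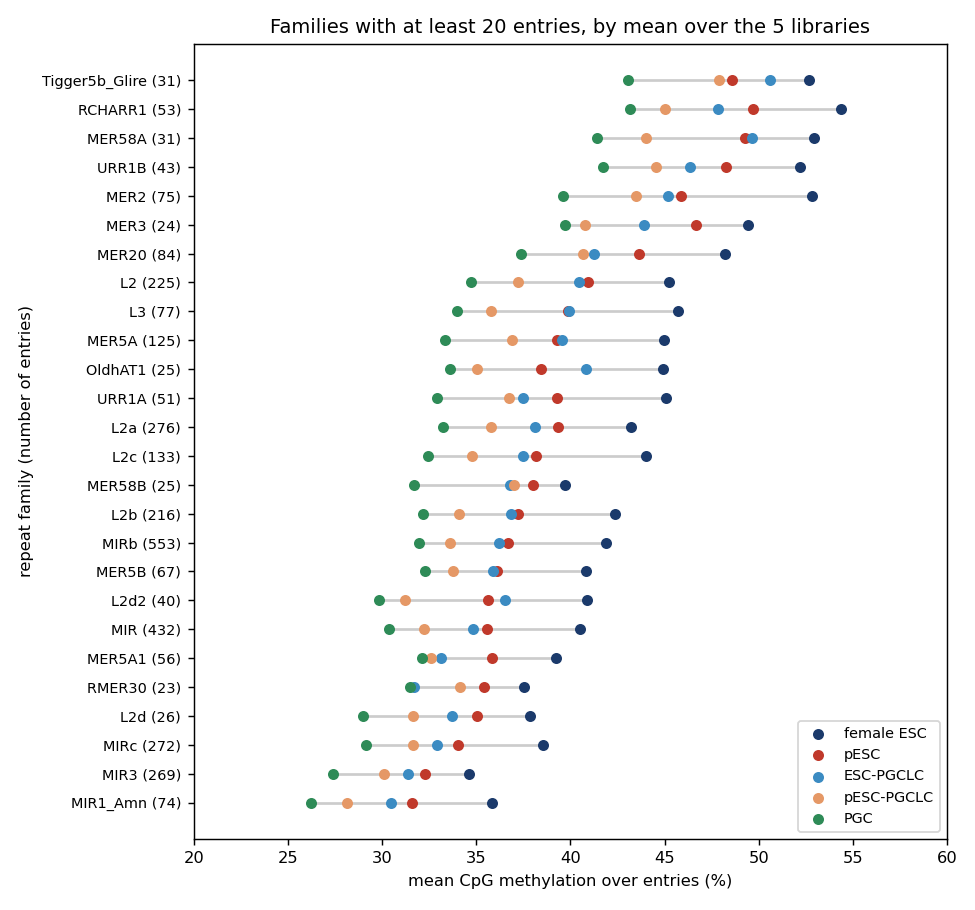
Mean CpG methylation (%) of the 26 ancient families with at least 20 entries, ordered by their mean over the 5 libraries, with 1 point per library. MIR1_Amn, MIR3 and MIRc are at the bottom and Tigger5b_Glire, RCHARR1 and MER58A at the top, and in every family the female ESC point is the rightmost and the PGC point the leftmost.

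The longest stretches of a consensus were more methylated than the shortest. Entries of up to 100 bases (1047) averaged 39.13% in female ESC and 30.15% in PGC, and entries over 300 bases (430) averaged 49.53% and 37.83%. The gap was largest in the TcMar-type class, where entries of up to 100 bases (31) were at 37.99% in female ESC and those over 300 bases (84) at 53.76%. In MIR, entries of up to 100 bases (502) were at 36.04% and those over 200 bases (148) at 45.37%. It was smaller in L2, at 40.75% against 45.31% over 300 bases. The rise was not steady in each class. In female ESC the hAT-type class was at 43.54% up to 100 bases and 42.85% at 151 to 200 bases. CR1 was at 51.92% at 101 to 150 bases and 44.72% at 151 to 200 bases. The pooled means also mix classes: MIR, the least methylated, held 502 of the 1047 shortest entries and is absent over 300 bases. The start of the stretch on the consensus was examined as well. In MIR, MIRb, MIRc and MIR3 (1526 entries) the female ESC mean stayed between 37.96% and 41.15% over 5 bins of the start. Of the L2, L2a, L2b and L2c entries (850), 80.5% began beyond base 2500, toward the 3′ end of the element. Their female ESC mean ran from 41.19% for starts beyond base 3300 to 47.43% for starts after base 2000 and up to base 2500. The sources used here do not give how genome copies were pooled into an entry, so the part of copy number and CpG density in this relation was not tested.

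The comparison of PGC with female ESC spans the widest gap of the design. Ancient repeats averaged 32.57% in PGC and 42.65% in female ESC, a difference of -10.08 points, and 80% of the entries were lower in PGC. The PGC level was 76.4% of the female ESC level in ancient repeats, against 81.6% in the other repeats. This share was 76.0% in L2, 72.9% in CR1, 76.1% in MIR, 77.6% in the hAT-type class and 75.5% in the TcMar-type class. It was 82.7% in L1 and 83.1% in ERVK. The LTR classes ERVL (76.4%) and MaLR (78.0%) were near the ancient repeats. The rodent SINE classes B4 (78.6%), B2 (79.6%) and B1 (80.4%) also lay below L1 and ERVK. The lower share was therefore not particular to the ancient classes.

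All 26 families with at least 20 entries were lower in PGC than in female ESC, by differences from -13.25 points in MER2 to -6.03 points in RMER30. MER2 was at 52.85% and 45.86% in the stem cell lines, 45.20% and 43.46% in the germ cell-like cells and 39.60% in PGC. URR1A, at 45.08% in female ESC and 32.91% in PGC, had the next largest difference. In 23 of the 26 families PGC stood at a smaller share of the female ESC level than over all repeats (81.2%). The same held in 22 of 26 families against pESC, a comparison added after values were seen. There PGC stood at 85.6% of the pESC level in ancient repeats and at 88.1% over all repeats.

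Ancient repeats had lower levels in every library, so the difference was also read at equal levels in pESC, a library outside the comparison. Entries with 40 to 60% methylation in pESC differed by -14.50 points between PGC and female ESC among ancient repeats (1374 entries, 55.17% in female ESC and 40.67% in PGC). Other repeats in the same band differed by -10.89 points (19182 entries, 53.28% and 42.38%). L2 (-15.08), MIR (-15.03) and CR1 (-14.87) had larger differences in this band than each of the 7 other repeat classes examined, of which ERVL came nearest (-13.75) and L1 was smallest (-9.85). The hAT-type class (-13.64) and the TcMar-type class (-13.30) lay just under ERVL. Ancient entries under 10% in pESC were 0.64 points higher in PGC. Read without female ESC, the PGC minus pESC difference in the band of 40 to 60% in ESC-PGCLC was -8.36 points for ancient repeats and -6.68 for the others. By class it was -8.77 in L2, -8.66 in the hAT-type class, -8.26 in CR1 and -8.13 in MIR. The 7 other repeat classes ran from -6.30 in L1 to -7.64 in ERVL, and the TcMar-type class (-7.20) lay within their range. The order of the classes thus depended on the comparison.

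**Figure D4:**
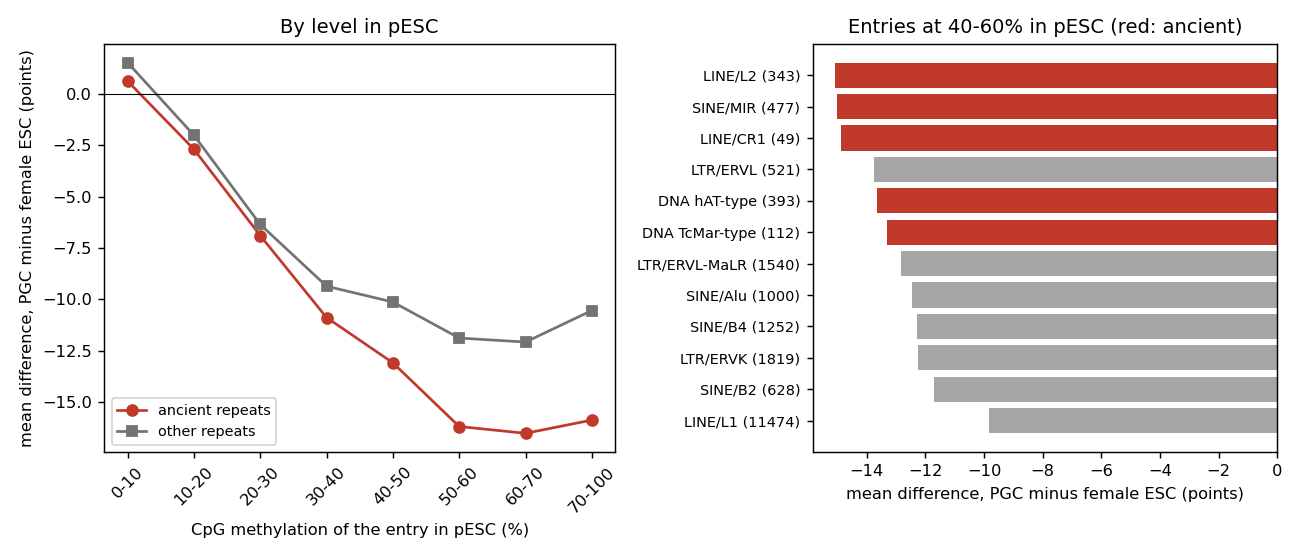
Left, mean difference PGC minus female ESC (percentage points) for entries grouped by their CpG methylation in pESC (%), for ancient and other repeats. Right, the same difference for entries at 40 to 60% in pESC by class, with the number of entries in brackets. The ancient line lies below the other line in each of the 8 bands, and L2, MIR and CR1 have the longest bars.

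Single entries were called different when 2 libraries were at least 25 percentage points apart, a fixed size with no test. In PGC 342 ancient entries were that much lower than in female ESC (8.60%, against 5.12% of all repeat entries) and 27 were higher (0.68%, against 0.583%). The 342 comprised 135 MIR, 85 L2, 83 hAT-type, 21 TcMar-type and 18 CR1 entries, so that 13.95% of CR1 entries and 7.83% of hAT-type entries were called. Of the 27 higher entries, 18 stood at exactly 0% or 100% in one of the libraries. With the overall shift taken out, by scaling the 2 libraries to the same mean over all repeats, 112 entries were lower (2.82%, all repeats 1.89%) and 61 higher (1.53%, all repeats 1.37%). Against pESC instead of female ESC, 79 were lower (1.99%, all repeats 1.19%) and 7 higher (0.18%, all repeats 0.20%). By class, the share lower than pESC was 4.65% in CR1, 2.45% in the hAT-type class, 1.75% in MIR, 1.72% in L2 and 1.17% in the TcMar-type class. The other repeat classes examined ran from 0.91% in ERVK to 1.70% in MaLR, so the ancient classes did not all stand apart from them.

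The entry with the largest difference was MIRb at consensus positions 69 to 249, at 100% and 40.4% in the stem cell lines, 42.4% and 20.8% in the germ cell-like cells and 13.5% in PGC. The furthest in the other direction was MIRb at positions 196 to 250, at 0% in female ESC and 47.4%, 63.6%, 77.8% and 60% in the other libraries. In both of them female ESC, at an extreme value, stood apart from all the other libraries. Among entries that were at 0% or 100% in no library, a choice made after values were seen, L2a at positions 2935 to 3131 had the largest difference. It was at 87.5% and 45% in the stem cell lines, 23.1% and 62.5% in the germ cell-like cells and 18.8% in PGC.

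The comparison of pESC with female ESC asks how the parthenogenetic line differs from the line with both parental genomes. Ancient repeats were at 38.03% in pESC and 42.65% in female ESC, a difference of -4.62 points, and 72.9% of entries were lower in pESC. The pESC level was 89.2% of the female ESC level in ancient repeats and 92.2% over all repeats. All 26 larger families were lower in pESC, from -6.99 points in MER2 to -1.72 in MER58B. After MER2 came OldhAT1 (25 entries), at 44.92% in female ESC and 38.46% in pESC. At 40 to 60% in PGC, a library outside the comparison, the difference was -7.00 points for ancient repeats and -4.30 for the others.

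In pESC 86 ancient entries were at least 25 points lower than in female ESC (2.16%, all repeats 1.69%) and 37 were higher (0.93%, all repeats 0.753%). Of the 37 higher entries, 21 were at 0% or 100% in one of the libraries, against 9 of the 86 lower ones. With the overall shift taken out there were 49 lower (1.23%, all repeats 1.20%) and 51 higher entries (1.28%, all repeats 1.03%). The scaling itself brings the 2 directions closer. The largest lower entry was MER2 at positions 3 to 345, at 100% and 25% in the stem cell lines, 12.0% and 46.2% in the germ cell-like cells and 31.8% in PGC. The largest higher entry was MIR3 at positions 47 to 126, at 0%, 66.7%, 13.0%, 41.7% and 44.4%. A MIR entry at positions 10 to 201 stood at 78.9% in female ESC and between 25% and 27.8% in each of the other libraries.

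Induction of germ cell-like cells was compared with the starting line in each case. ESC-PGCLC ancient repeats were 5.25 points below female ESC (a difference of -5.25), with 73.9% of entries lower. For pESC-PGCLC the difference from pESC was -3.08 points, with 66.2% of entries lower. Over all repeats 79.6% and 73.5% of entries were lower. All 26 larger families were lower after induction in both lines. The largest differences were in MER2 (-7.65) and URR1A (-7.61) for the female line and in MER3 (-5.91) and MER58A (-5.29) for the parthenogenetic line. MER3, a short Charlie-related hAT element (24 entries), was at 46.69% in pESC and 40.79% in pESC-PGCLC. Whether the 2 inductions differed was not tested.

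In ESC-PGCLC 120 ancient entries were at least 25 points lower than in female ESC (3.02%, all repeats 2.23%) and 35 higher (0.88%, all repeats 0.804%). In pESC-PGCLC 51 were lower than in pESC (1.28%, all repeats 0.879%) and 15 higher (0.38%, all repeats 0.339%). With the overall shift taken out these were 74 lower (1.86%, all repeats 1.49%) and 56 higher (1.41%, all repeats 1.25%) for the female line. For the parthenogenetic line they were 38 lower (0.96%, all repeats 0.68%) and 27 higher (0.68%, all repeats 0.56%). The 2 inductions share no library, and 11 entries were lower in both, 9.17% of the 120 and 21.6% of the 51. Over all repeats 75 entries were lower in both, 7.20% of 1042 and 18.3% of 410, so the ancient shares lay near those of repeats in general. Of the 120 ancient entries, 2 went the opposite way in the parthenogenetic line, as did 32 of the 1042. Of the 35 higher entries, 3 were higher in both inductions (8.57%) and 4 went the opposite way. Over all repeats 32 of 375 were higher in both (8.53%) and 35 went the opposite way, so the ancient share was near that of repeats in general.

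Among the entries lower in both inductions was MIR at positions 30 to 140, at 71.0% and 65.5% in the stem cell lines, 23.3% and 14.6% in the germ cell-like cells and 19.2% in PGC. MER5A1, another Charlie-related hAT element, at positions 28 to 166 was at 80%, 60.4%, 19.0%, 8.33% and 20.6%. In both the stem cell libraries were high and all 3 germ cell libraries low. MIRb at positions 43 to 175 was at 75%, 68.5%, 42.3%, 38.9% and 33.9%, and L2 at positions 60 to 114 at 72.2%, 71.2%, 31.8%, 45.3% and 45.1%. These 4 entries, chosen after values were seen, were the only ancient entries in which each stem cell library exceeded each germ cell library by at least 25 points (0.10%, all repeats 0.049%). No ancient entry showed the opposite pattern at that size, which was also rare among all repeats (8 entries, 0.017%). With 10 points, 80 ancient entries had both stem cell libraries above all germ cell libraries (2.01%, all repeats 1.26%) and 6 the opposite (0.15%, all repeats 0.18%).

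The germ cell-like cells were then set beside the PGC library. ESC-PGCLC was 4.83 points above PGC in ancient repeats and pESC-PGCLC 2.38 points above. Against PGC, 26.7% of entries were lower in ESC-PGCLC and 36.2% lower in pESC-PGCLC. All 26 larger families were above PGC in both. In ESC-PGCLC the differences ran from 0.21 points in RMER30 to 8.24 in MER58A, with Tigger5b_Glire next at 7.51. In pESC-PGCLC they ran from 0.47 to 5.27 points, the highest in MER58B (25 entries), which stood at 36.98% there and at 31.71% in PGC.

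In ESC-PGCLC 56 ancient entries were at least 25 points higher than in PGC (1.41%, all repeats 1.13%) and 14 lower (0.35%, all repeats 0.283%). In pESC-PGCLC 47 were higher (1.18%, all repeats 0.802%) and 18 lower (0.45%, all repeats 0.377%). With the overall shift taken out, ESC-PGCLC had 23 higher (0.58%, all repeats 0.49%) and 17 lower (0.43%, all repeats 0.36%). On that scale pESC-PGCLC had 31 higher (0.78%, all repeats 0.51%) and 21 lower (0.53%, all repeats 0.42%). The entry furthest above PGC was MIRc at positions 42 to 149, at 41.7% and 56.3% in the stem cell lines, 42.9% and 100% in the germ cell-like cells and 5.00% in PGC. In ESC-PGCLC it was MARNA, a mariner-related element, at positions 14 to 466, with 60%, 35.0%, 100%, 71.4% and 41.2%.

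Between the 2 germ cell-like libraries, pESC-PGCLC was lower by a mean difference of -2.45 points, with 63.3% of entries lower. Of the 26 larger families 24 were lower in pESC-PGCLC, the furthest being OldhAT1 at 40.85% in ESC-PGCLC and 35.03% in pESC-PGCLC (-5.82) and MER58A (-5.63). MER58B and RMER30 were higher. At the entry level 48 were at least 25 points lower in pESC-PGCLC (1.21%, all repeats 0.823%) and 30 higher (0.75%, all repeats 0.459%). With the overall shift taken out these were 41 lower (1.03%, all repeats 0.69%) and 37 higher (0.93%, all repeats 0.61%).

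Parthenogenetic and biparental cells were compared both before and after induction, in pairs that share no library. Of the entries lower in pESC, 10 were also lower in pESC-PGCLC than in ESC-PGCLC, 11.6% of 86 and 20.8% of 48, against 7.97% of 790 and 16.4% of 384 over all repeats. Another 5 of the 86 went the opposite way, being at least 25 points higher in pESC-PGCLC, as did 38 of the 790. Among the 10 entries lower in both comparisons was MIRb at positions 3 to 93. It was at 90% in female ESC and 82.4% in ESC-PGCLC and at 50% in pESC and 38.7% in pESC-PGCLC. Another of these 10 was MIR at positions 74 to 129. It was at 84.6% in female ESC and 83.9% in ESC-PGCLC and at 53.7% in pESC and 55.3% in pESC-PGCLC. In both entries pESC and pESC-PGCLC lay below both female ESC and ESC-PGCLC, and PGC stood at 31.8% in the first and 60.6% in the second. These entries were named after values were seen, and not all of the 10 split in this way. L3b at positions 4865 to 4963 was at 40% in pESC and 35.7% in ESC-PGCLC. MARNA at positions 14 to 466 was at 71.4% in pESC-PGCLC and 60% in female ESC.

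There were 6 entries higher in both parthenogenetic libraries, 16.2% of 37 and 20.0% of 30, against 8.55% of 351 and 14.0% of 214 over all repeats. The opposite direction after induction was seen in 2 of the 37, and over all repeats in 32 of the 351, about as many as the 30 higher in both. All 6 were listed at 0% in female ESC. They included MER2 at positions 168 to 344, at 0% and 50% in the stem cell lines, 0% and 43.8% in the germ cell-like cells and 0% in PGC. MIR at positions 109 to 231 had the same pattern at 0%, 30.8%, 0%, 28.6% and 0%. MER5A1 at positions 1 to 71 was at 0%, 42.9%, 0%, 40% and 36.4%. Since depth is unknown, the counting error of such values is unknown too.

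**Figure D5:**
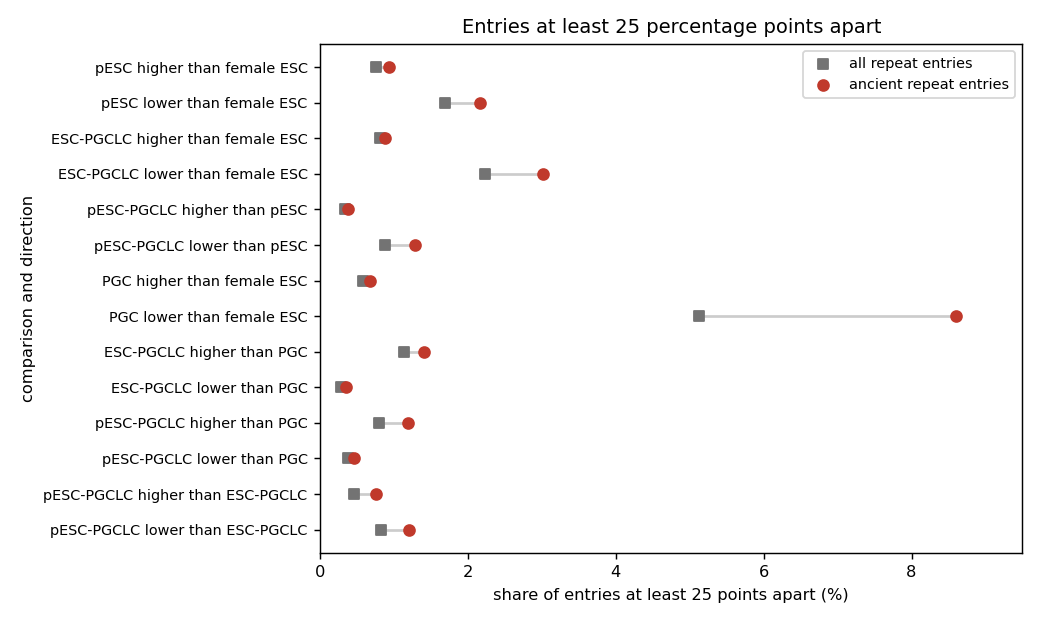
Share of ancient entries (red circles) and of all repeat entries (grey squares) that were at least 25 percentage points apart, for the 7 comparisons and both directions. The ancient share is the larger of the 2 in each of the 14 cases, and most of all for entries lower in PGC than in female ESC, at 8.60% against 5.12%.

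ESC-PGCLC and pESC, though of different lines and stages, had nearly the same mean. ESC-PGCLC was lower than pESC in L2 (a difference of -0.67 points), MIR (-0.76) and the hAT-type class (-0.89), and higher in the TcMar-type class (0.85). CR1 was 0.36 points higher among entries listed in all libraries and -1.05 points from pESC among all entries listed in these 2, so its direction depends on which entries are counted.

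Methylation outside CpG was about 1% or less in every library and did not follow the order seen at CpG sites. In ancient repeats the mean CHG level lay between 0.87% in pESC and 1.02% in ESC-PGCLC, and the CHH level between 0.60% in pESC and 0.78% in ESC-PGCLC. Unconverted cytosine adds to these values, and its part was not tested. The range over libraries was less than 0.2 points, far below the differences at CpG sites.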

How the data were processed

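The authors deposited, for each of 5 libraries, CpG, CHG and CHH methylation levels as a fraction from 0 to 1 per region or repeat entry, with no read counts. Depth, coverage filters and the error of a level are therefore unknown. The submitters' processing notes name Bismark 0.16.3, Bowtie2 and the build mm10, without their roles. Levels are printed as percent. Entries were selected by the class in their label and by being listed in all 5 libraries. Differences are means over entries. A call is a difference of at least 25 percentage points, read against its share among all repeat entries; with 1 library per group no test was possible. Families with at least 20 entries were compared, and named families were the 4 with the most entries in each class, the 3 highest and 3 lowest, the 2 furthest apart in each comparison and direction, and the rodent-specific ones. For each comparison the furthest entry in each direction was eligible. The members and lists were chosen with earlier results of these data known. Alternatives covered the size threshold, extreme levels, unconverted cytosines, the listing, weighting and the overall shift. The counting of calls was tried on simulated levels with an assumed, equal depth for every entry. Since the true depth is unknown, that trial does not give the error rate of calls in these data. Python 3.11.15, pandas 2.3.3, numpy 2.4.6 and scipy 1.17.1 were used.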

Additional observations from a re-analysis of the deposited data

Results flagged for a closer look

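MER58B and RMER30, both DNA transposon families, were the only families of the 26 with at least 20 entries whose difference between parthenogenetic and biparental cells had opposite signs before and after induction. MER58B was lower in pESC than in female ESC (-1.72 points) and 0.215 points higher in pESC-PGCLC than in ESC-PGCLC. RMER30 was lower in pESC (-2.12 points) and 2.44 points higher in pESC-PGCLC. The difference between the 2 comparisons was not tested, since each rests on 1 library per group. The signs were the same without entries at 0% or 100%, where RMER30 had -2.98 and 1.91 points and MER58B -2.56 and 1.17 points.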

How the results depend on the processing

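Read depth per entry is unknown, and each group has 1 library. No replicate was left out, since none would remain in its group. No paired test was possible with 1 library per group. All 7 mean differences kept their direction under every alternative tried. They stayed close to the reported values with medians, with families weighted equally, with the CHH level taken off, and without entries at 0% or 100% or those under 10% throughout. MIR was the lowest class in all 5 libraries in each setting tried.

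As a percent of the level in the second library, the differences were -10.8 (pESC minus female ESC), -12.3 (ESC-PGCLC minus female ESC), -8.10 (pESC-PGCLC minus pESC), -23.6 (PGC minus female ESC), 14.8 (ESC-PGCLC minus PGC), 7.30 (pESC-PGCLC minus PGC) and -6.55 (pESC-PGCLC minus ESC-PGCLC). With pESC in place of female ESC, a setting chosen after seeing the data, PGC differed by -5.46 points, with 7 entries higher and 79 lower.

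Counts of entries moved with the threshold. In the same order of comparisons, at 40 points 14, 14, 4, 5, 9, 9 and 8 entries were higher and 16, 28, 10, 52, 0, 3 and 10 lower. At 10 points 185, 167, 151, 114, 954, 496 and 156 were higher and 962, 1026, 597, 2010, 101, 152 and 520 lower. Among all entries listed in the 2 libraries compared, 32 were higher and 103 lower in pESC-PGCLC than in pESC, 107 higher and 36 lower in ESC-PGCLC than in PGC, 73 higher and 52 lower in pESC-PGCLC than in PGC, and 55 higher and 81 lower in pESC-PGCLC than in ESC-PGCLC. Without entries at 0% or 100%, the higher counts were 16, 20, 9 and 9 in the first 4 comparisons and 19 in the last, and the lower counts against PGC were 7 for ESC-PGCLC and 11 for pESC-PGCLC. These counts at other thresholds, listings and levels were not set beside shares over all repeat entries. Whether the ancient share was the larger in these settings was therefore not tested. With the overall shift taken out, the higher counts were 56, 27, 61, 23 and 31 in the second to sixth comparisons, and the lower counts 49, 74 and 112 for pESC, ESC-PGCLC and PGC against female ESC.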
